A study of Mus musculus with 7 samples.

Results

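Collagens are the triple-helical proteins of the extracellular matrix, and each chain of the helix has its own gene. Fibrillar collagens form the fibres that give a tissue its strength, collagen IV forms the sheet of basement membranes, collagen VI forms beaded filaments around cells, and the FACIT collagens sit on the surface of fibrils. The sinoatrial node, the pacemaker region of the right atrium, is known for strands of muscle cells embedded in such connective tissue. The genes described here are those with a symbol of the form Col, number, a, number in the day-6 expression table. Of 15965 genes with a completed comparison, 40 carry such a symbol, and 30 of them had a mean of at least 1 FPKM over both libraries and are the members. FPKM (fragments per kilobase of transcript, scaled to the mapped fragments of the library) is corrected for transcript length, so levels of different chains can be set side by side. The other 10 chains are weaker and are given apart.

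The series has 7 samples, and the values come from 2 of them, RNA-seq libraries of sinoatrial node from Sv129 mice at 3 weeks of age. The Cre library came from Baf250af/f;Hcn4CreERT2 mice 6 days after tamoxifen. In these mice tamoxifen activates a Cre recombinase driven from Hcn4, a pacemaker-cell gene, which removes the floxed part of Baf250a (symbol Arid1a), a DNA-binding member of a BAF complex that moves nucleosomes. The control library came from Baf250af/f mice without Cre, so both genotypes carry the floxed allele. The number and sex of the mice, and whether the control mice received tamoxifen, are not given in the labels. The other 5 libraries, a time series within the first days of tamoxifen, were not used here. Each genotype has 1 library, so no value has a replicate check, no test was possible, and every difference is one between 2 libraries. Differences are log2 ratios of FPKM + 1, Cre over control, and 2-fold means a log2 ratio of 1 on this scale. A value called higher by any amount need only be above equal expression.

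The libraries differed in more than the floxed gene. Arid1a had 12.3 FPKM in the Cre library and 34.9 FPKM in the control library, a value that also covers exons outside a floxed region. The 8 T cell and thymocyte markers summed to 4.36 FPKM in the Cre library and 2138 FPKM in the control library, and the 6 thymic epithelium markers to 11.9 and 388 FPKM in the same order. The 9 lung and airway markers summed to 18637 FPKM in the Cre library and 4193 FPKM in the control library. Xist, the RNA that silences 1 X chromosome in female cells, had 93.2 FPKM in the Cre library and 0.379 FPKM in the control library, and the Y-linked Eif2s3y had 0.118 and 85.8 FPKM in the same order. FPKM values are shares of a library, so they fall when RNA of another tissue takes up more of it. The part of these differences in the collagen values was not tested.

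Nearly every collagen chain had the higher value in the Cre library, by less than 2-fold in most cases. Of all 40 chains, 39 (97.5%) were higher by any amount, against 48.7% of all genes with a completed comparison. Among the 30 members the number was 29 (96.7%), against 46.0% of the 13408 genes measured at the same minimum. At least 2-fold higher were 2 members, Col6a3 and Col4a2, or 6.67%, close to the 6.08% of all measured genes, and 0 members were at least 2-fold lower, against 10.4%. That closeness holds at these settings. With a common upper quartile 9 of 30 members were at least 2-fold higher, against 9.71% of all genes, with a pseudocount of 0.1 it was 6 of 30, against 9.41%, and with one of 5 it was 0 of 30, against 1.78%. The median log2 ratio of the members was 0.65, beside -0.07 for all measured genes. A group of 3 members, Col6a5, Col7a1 and Col8a2, reached the minimum only through the Cre library. Of the 27 members at or above 1 FPKM in both libraries 26 were higher in the Cre library. The 14 members with a mean of at least 10 FPKM all had a higher value in the Cre library, with log2 ratios between 0.32 and 1.21, while 39.5% of the 7028 genes at that level did. Both chains past 2-fold are among these 14, and at that level 3.86% of genes were at least 2-fold higher and 10.8% lower. No collagen chain was significant in the authors' deposited table, which called 0.564% of genes, and the smallest q-value of a member in the authors' deposited table was 0.999. In bulk RNA, more cells of a type cannot be told apart from more RNA per cell.

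**Figure D1:**
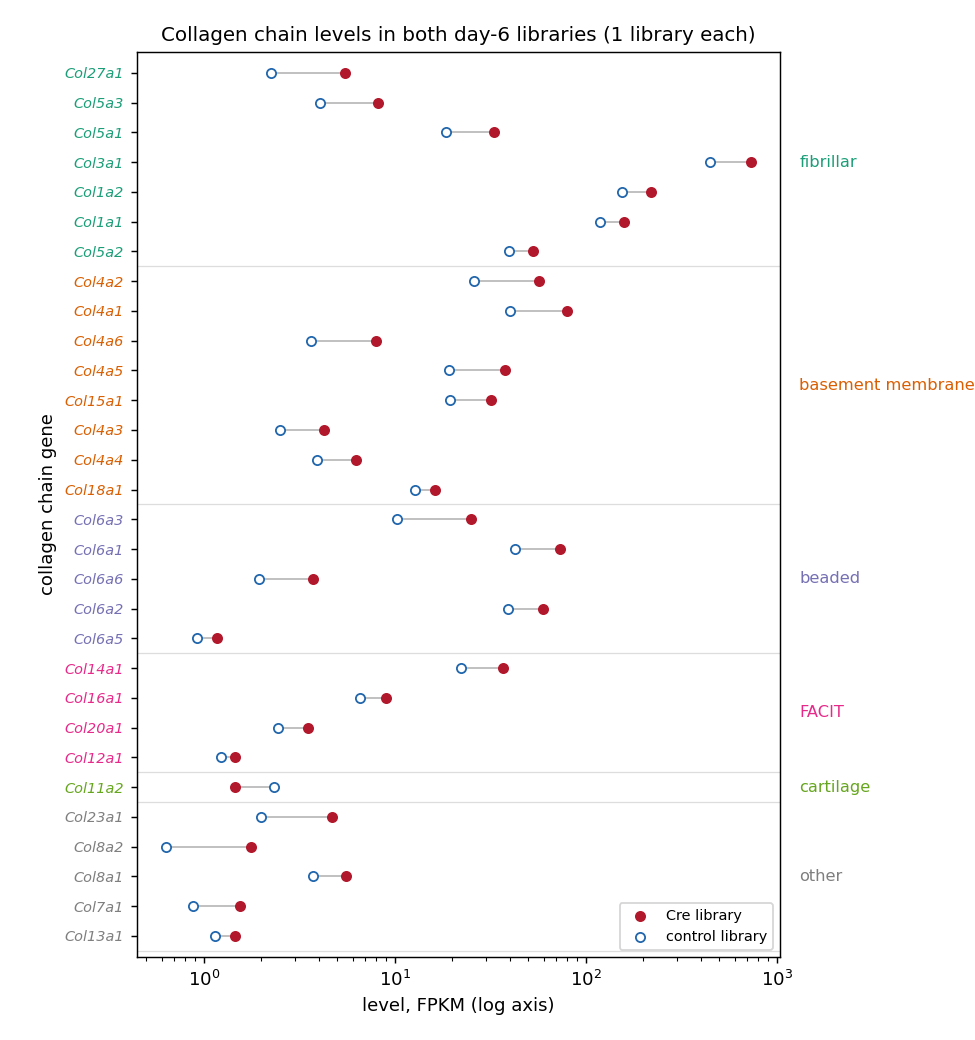
Level of each of the 30 collagen chain members in FPKM (log axis) in the Cre library (filled) and the control library (open), grouped by class. The filled point lies to the right for every chain except Col11a2, and Col3a1 is the most abundant at 729 FPKM in the Cre library and 449 FPKM in the control library.

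**Figure D2:**
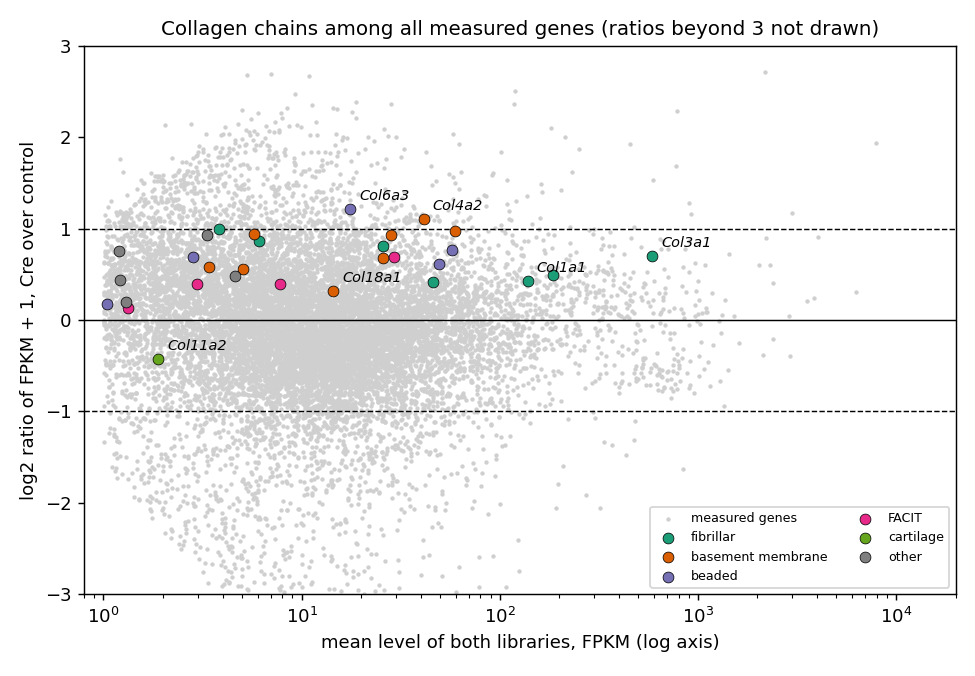
Log2 ratio of FPKM + 1 (Cre over control) against the mean level in FPKM (log axis) for the measured genes (grey, ratios beyond 3 not drawn) and the collagen members (coloured by class), with dashed lines at 2-fold. The 14 members with a mean of at least 10 FPKM lie between 0.32 and 1.21.

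Together the 40 chains summed to 1684 FPKM in the Cre library and 1053 FPKM in the control library, 0.347% and 0.212% of all FPKM in the same order. Fibrillar chains held 71.7% of the collagen sum in the Cre library and 74.7% in the control library. Basement membrane chains held 14.3% in the Cre library and 12.1% in the control library, and beaded chains 9.71% and 8.97% in the same order. The order of the classes by their share was thus the same in both libraries.

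Fibrillar collagens were the most abundant class, and all 7 members lay above equal expression without reaching 2-fold. Of all measured genes 46.0% lay above and 6.08% were at least 2-fold higher. Col2a1, Col11a1 and Col11a2, which form the fibrils of cartilage, are counted in the cartilage class and not here. Of these Col11a2 had the lower value in the Cre library, with a log2 ratio of -0.43. Col3a1, the chain of the thin reticular fibres of soft organs, had 729 FPKM in the Cre library and 449 FPKM in the control library, with a log2 ratio of 0.70. It was the 76th most abundant gene of the Cre library and the 182nd of the control library. Col1a2 and Col1a1 encode the chains of collagen I, the main collagen of scar and tendon. Col1a2 had 219 FPKM in the Cre library and 155 FPKM in the control library, with a log2 ratio of 0.50. Col1a1 had 159 FPKM in the Cre library and 118 FPKM in the control library, with a log2 ratio of 0.42. The most abundant chains were therefore not those with the widest difference.

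Collagen V starts fibrils and limits their width. Its chains Col5a1, Col5a2 and Col5a3 had 33.1, 53.0 and 8.16 FPKM in the Cre library, against 18.4, 39.5 and 4.03 FPKM in the control library. Their log2 ratios were 0.81, 0.41 and 0.86, so that Col5a2, the most abundant of the set, differed least. Col27a1, a fibrillar chain known from developing cartilage, had 5.46 FPKM in the Cre library and 2.24 FPKM in the control library, with a log2 ratio of 0.99 just short of 2-fold. The median of the class was 0.70.

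Basement membrane collagens had the highest class median, 0.81 over 8 members, and 1 member was at least 2-fold higher, against 6.08% of all measured genes. Col4a1 and Col4a2 encode the chains of the collagen IV network found under nearly all endothelium and around muscle cells. Col4a2 had 56.9 FPKM in the Cre library and 25.9 FPKM in the control library, with a log2 ratio of 1.10, higher than 95.3% of measured genes. Col4a1 had 79.5 FPKM in the Cre library and 40.1 FPKM in the control library, with a log2 ratio of 0.97. Col4a5 and Col4a6, known as a pair in smooth muscle basement membranes, had 37.5 and 7.91 FPKM in the Cre library and 19.1 and 3.65 FPKM in the control library, with log2 ratios of 0.94 for both. Col4a5 and Col4a6 lie on the X chromosome, and the libraries differ in their sex-linked genes. Their part in these values was not tested.

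Col4a3 and Col4a4, the chains best known from the kidney filter, were weaker, at 4.28 and 6.21 FPKM in the Cre library and 2.52 and 3.90 FPKM in the control library. Their log2 ratios were 0.59 and 0.56, below those of the other collagen IV genes. Col15a1 and Col18a1 encode collagens that join basement membranes to the matrix around them. Col15a1 had 31.9 FPKM in the Cre library and 19.5 FPKM in the control library, with a log2 ratio of 0.68. Col18a1, whose end fragment is endostatin, had 16.1 FPKM in the Cre library and 12.7 FPKM in the control library, with a log2 ratio of 0.32, the lowest of the class.

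The collagen IV genes lie head to head in pairs, and with a pseudocount of 1 the members of a pair had like ratios. Col4a1 and Col4a2 are separated by 1 base on chromosome 8 of mm9 in the table's loci (Col4a1 11198422 to 11312826, Col4a2 11312828 to 11449287), and their log2 ratios differed by 0.13. Col4a3 and Col4a4 are separated by 70 bases on chromosome 1 and differed by 0.029, and Col4a5 and Col4a6 by 1341 bases on the X chromosome and differed by 0.0032. Other neighbours differed more at this setting. Col3a1 and Col5a2, 24623 bases apart on chromosome 1, differed by 0.28. Col6a1 and Col6a2, 85386 bases apart on chromosome 10, differed by 0.16, and Col6a5 and Col6a6, 27983 bases apart on chromosome 9, by 0.51. With no pseudocount the log2 difference was -0.15 for Col4a1 over Col4a2, 0.094 for Col4a3 over Col4a4 and -0.15 for Col4a5 over Col4a6. For Col6a1 over Col6a2 it was 0.16. With a pseudocount of 5 the log2 ratios of Col4a5 and Col4a6 were 0.82 and 0.58, and those of Col6a1 and Col6a2 0.72 and 0.57. The contrast thus depends on the pseudocount. The neighbours are 6 pairs in 2 libraries, and the pattern was not tested.

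The start regions of Col4a1 and Col4a2 are shown because a single stretch serves both genes, beside those of Col1a2 and Col3a1, the most abundant fibrillar chains with an entry. Each window runs from 250 bases before to 50 bases after the annotated start (RefSeq, build GRCm38.p6). For the collagen IV pair capitals mark the 78 bases that both windows share, read on opposite strands, and for the fibrillar genes they mark the motifs searched. Those were the TATA box (TATAAA), the CCAAT box (CCAAT) and the GC box (GGGCGG), on both strands. Col4a1 is at chr8:11312777-11313076 on the minus strand, Col4a2 at chr8:11312555-11312854 on the plus strand, Col1a2 at chr6:4505368-4505667 on the plus strand and Col3a1 at chr1:45311288-45311587 on the plus strand.
Col4a1: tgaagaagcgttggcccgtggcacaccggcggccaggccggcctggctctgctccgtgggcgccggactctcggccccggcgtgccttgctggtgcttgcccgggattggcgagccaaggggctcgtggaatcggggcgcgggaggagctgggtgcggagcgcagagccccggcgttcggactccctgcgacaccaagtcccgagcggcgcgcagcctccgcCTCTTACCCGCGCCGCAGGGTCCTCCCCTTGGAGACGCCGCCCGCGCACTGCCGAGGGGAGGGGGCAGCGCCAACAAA
Col4a2: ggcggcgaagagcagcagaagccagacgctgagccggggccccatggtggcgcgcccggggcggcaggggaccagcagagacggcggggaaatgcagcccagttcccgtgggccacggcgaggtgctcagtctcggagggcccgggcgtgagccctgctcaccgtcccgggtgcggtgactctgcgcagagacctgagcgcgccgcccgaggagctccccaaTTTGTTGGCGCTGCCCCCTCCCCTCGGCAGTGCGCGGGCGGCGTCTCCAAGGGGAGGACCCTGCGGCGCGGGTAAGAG
Col1a2: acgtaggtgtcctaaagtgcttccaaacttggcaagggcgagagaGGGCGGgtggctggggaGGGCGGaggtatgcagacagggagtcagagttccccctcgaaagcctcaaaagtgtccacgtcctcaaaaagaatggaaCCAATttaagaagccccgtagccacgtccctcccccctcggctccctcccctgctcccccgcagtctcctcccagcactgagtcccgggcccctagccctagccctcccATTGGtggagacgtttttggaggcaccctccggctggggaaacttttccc
Col3a1: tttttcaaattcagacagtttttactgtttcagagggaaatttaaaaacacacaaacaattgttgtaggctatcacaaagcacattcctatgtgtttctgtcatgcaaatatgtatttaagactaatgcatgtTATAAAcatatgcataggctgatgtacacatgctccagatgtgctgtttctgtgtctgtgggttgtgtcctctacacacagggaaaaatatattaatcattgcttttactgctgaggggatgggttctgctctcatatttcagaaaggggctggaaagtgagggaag

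The annotated starts of Col4a1 and Col4a2 have 20 bases between them. These bases come after the start of each gene, so in this annotation the genes overlap at their starts. In the mm9 loci given above they were separated by 1 base. The windows of Col4a1 and Col4a2 are rich in G and C, at 74% and 73.7%, compared with 61% for Col1a2, 37.7% for Col3a1 and a median of 52.7% over all windows. A CCAAT box stands in both collagen IV windows, at position -145 on the opposite strand for Col4a1 and at -32 for Col4a2, counted from the start. GC boxes stand at 10 on the opposite strand for Col4a1, and for Col4a2 at -192, at 8 and, on the opposite strand, at -48. Col1a2 has a CCAAT box at -109, another on the opposite strand at 1, and GC boxes at -205 and -188. Col3a1 has none of the motifs but a TATA box at -117. Of 33 collagen genes with a window, 21 (63.6%) hold the GC box, 12 (36.4%) the CCAAT box and 5 (15.2%) the TATA box. Over all 32851 windows, each counted singly, the shares were 35.7%, 37.4% and 13.6% in the same order. A collagen gene was counted if any of its windows held the motif, so the shares are not of the same unit. A match is a match of letters only, and nothing follows from it about binding.

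Beaded collagens included the chain with the highest ratio of all members. Col6a3, the long chain of collagen VI, had 24.9 FPKM in the Cre library and 10.2 FPKM in the control library, with a log2 ratio of 1.21, higher than 96.4% of measured genes. Col6a1 had 73.0 FPKM in the Cre library and 42.3 FPKM in the control library, with a log2 ratio of 0.77. Col6a2 had 59.9 FPKM in the Cre library and 38.9 FPKM in the control library, with a log2 ratio of 0.61. All of the classical collagen VI chains were thus higher, but not by the same ratio. Col6a6 and Col6a5, which can take the place of Col6a3 in the filament, had 3.74 and 1.17 FPKM in the Cre library and 1.94 and 0.916 FPKM in the control library. Their log2 ratios were 0.69 and 0.18. The class median was 0.69 over 5 members.

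FACIT collagens had a median log2 ratio of 0.40 over 4 members. Col14a1, which binds decorin on the fibril surface, had 36.6 FPKM in the Cre library and 22.2 FPKM in the control library, with a log2 ratio of 0.69. Col16a1 and Col20a1 had 9.01 and 3.52 FPKM in the Cre library and 6.58 and 2.43 FPKM in the control library, both with log2 ratios of 0.40. Col12a1, which is known from tendon and from tissue under strain, had 1.45 FPKM in the Cre library and 1.23 FPKM in the control library, with a log2 ratio of 0.14.

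**Figure D3:**
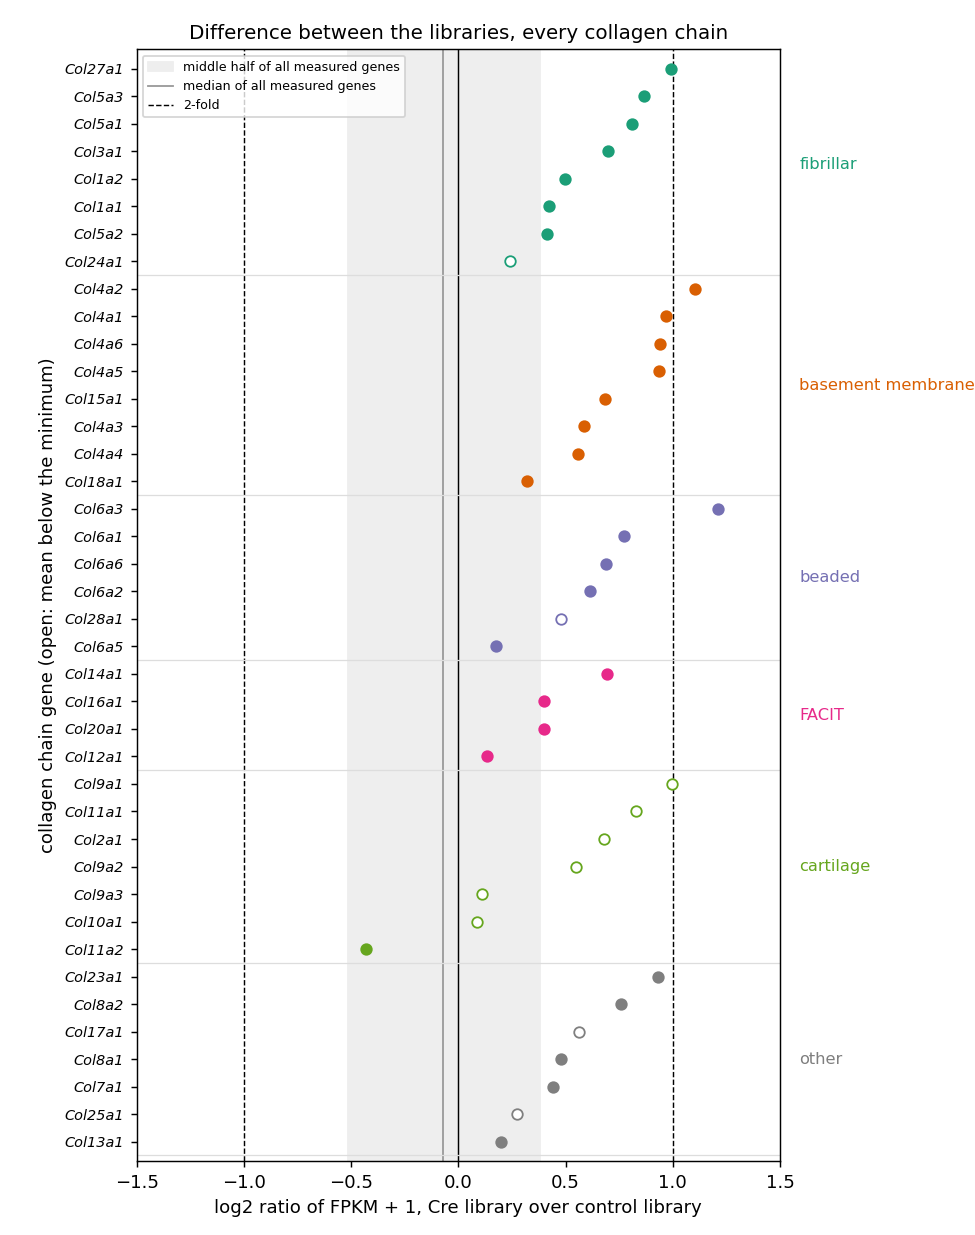
Log2 ratio of FPKM + 1 (Cre over control) for all 40 collagen chains by class, with members filled and weaker chains open. The grey band spans the quartiles of all measured genes (-0.52 to 0.38), and 39 of 40 points lie to the right of equal expression.

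Cartilage collagens were weak in both libraries. The only cartilage chain to reach the minimum was Col11a2, a chain of the thin fibrils of cartilage, and it was the only chain of the 40 with the lower value in the Cre library, at 1.46 FPKM and 2.31 FPKM in the control library, with a log2 ratio of -0.43. The other 6 cartilage chains had log2 ratios between 0.089 and 0.996 at low levels. Col9a1 had 1.21 FPKM in the Cre library and 0.107 FPKM in the control library, and its partners Col9a2 and Col9a3 had 0.625 and 0.734 FPKM in the Cre library and 0.112 and 0.604 FPKM in the control library. Col2a1, the main collagen of cartilage, had 0.660 FPKM in the Cre library and 0.0367 FPKM in the control library. Col11a1, its partner in fibrils, had 1.06 FPKM in the Cre library and 0.159 FPKM in the control library. Col10a1, of enlarged growth-plate chondrocytes, had 0.205 FPKM in the Cre library and 0.133 FPKM in the control library. The read depth is unknown, so no interval can be put on values this low. The 8 chondrocyte markers in the table summed to 43.0 FPKM in the Cre library and 25.3 FPKM in the control library. Chad had 27.8 and 8.79 FPKM and Comp 6.98 and 10.8 FPKM in the same order, and Acan, the aggrecan that defines cartilage, had 0.306 and 0.708 FPKM. Sox9 was also lower in the Cre library, at 1.76 and 1.92 FPKM in the same order. Cnmd had 3.34 and 2.46 FPKM, Ucma 1.26 and 0.333 FPKM, Hapln1 1.10 and 0.190 FPKM, and Snorc 0.420 and 0.117 FPKM. Their part in the cartilage collagen values was not tested.

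The remaining chains stand outside these classes. Col23a1 and Col13a1 span the cell membrane, and they had 4.69 and 1.46 FPKM in the Cre library and 1.99 and 1.14 FPKM in the control library, with log2 ratios of 0.93 and 0.20. Col8a1 and Col8a2, short chains of the vessel wall, had 5.57 and 1.76 FPKM in the Cre library and 3.71 and 0.631 FPKM in the control library, with log2 ratios of 0.48 and 0.76. Col7a1, which anchors epithelium to the tissue below it, had 1.54 FPKM in the Cre library and 0.871 FPKM in the control library, with a log2 ratio of 0.44.

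The weaker chains outside cartilage also lay above equal expression. Col17a1, of the junction between epithelium and basement membrane, had 1.06 FPKM in the Cre library and 0.397 FPKM in the control library. Col28a1 had 0.702 FPKM in the Cre library and 0.222 FPKM in the control library, Col25a1 had 0.486 and 0.230 FPKM in the same order, and Col24a1 had 0.288 and 0.0887 FPKM. The members just above the minimum were Col6a5, Col8a2 and Col7a1, with means of 1.04, 1.20 and 1.21 FPKM, and the chains just below it were Col17a1, Col9a3 and Col9a1, with means of 0.729, 0.669 and 0.658 FPKM. Emid2, the row of the gene now named Col26a1, does not carry a Col symbol in the table and had 0.557 FPKM in the Cre library and 0.127 FPKM in the control library.

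Proportions between collagen chains were similar in both libraries for some pairs and not for others. Levels per length were compared within each library, which does not depend on how the libraries were scaled. The ratio of Col1a1 to Col1a2 was 0.725 in the Cre library and 0.764 in the control library. The ratio of Col4a1 to Col4a2 was 1.40 in the Cre library and 1.55 in the control library, and that of Col4a1 to Col4a5 was 2.12 and 2.10 in the same order. Col4a3 stood to Col4a4 at 0.688 and 0.644, and Col4a5 to Col4a6 at 4.74 and 5.24, in the same order. Within collagen VI, Col6a1 stood to Col6a2 at 1.22 in the Cre library and 1.09 in the control library, but Col6a3 stood to Col6a1 at 0.341 in the Cre library and 0.241 in the control library. Col3a1 stood to Col1a1 at 4.59 in the Cre library and 3.80 in the control library. The ratio of Col5a1 to Col5a2 was 0.624 in the Cre library and 0.466 in the control library. That of the weaker pair Col8a1 and Col8a2 was 3.16 in the Cre library and 5.88 in the control library, where Col8a2 was below the minimum. On the log2 scale these proportions moved by -0.07 for Col1a1 over Col1a2, 0.016 for Col4a1 over Col4a5, 0.50 for Col6a3 over Col6a1 and -0.89 for Col8a1 over Col8a2, with no replicate to set them against.

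**Figure D4:**
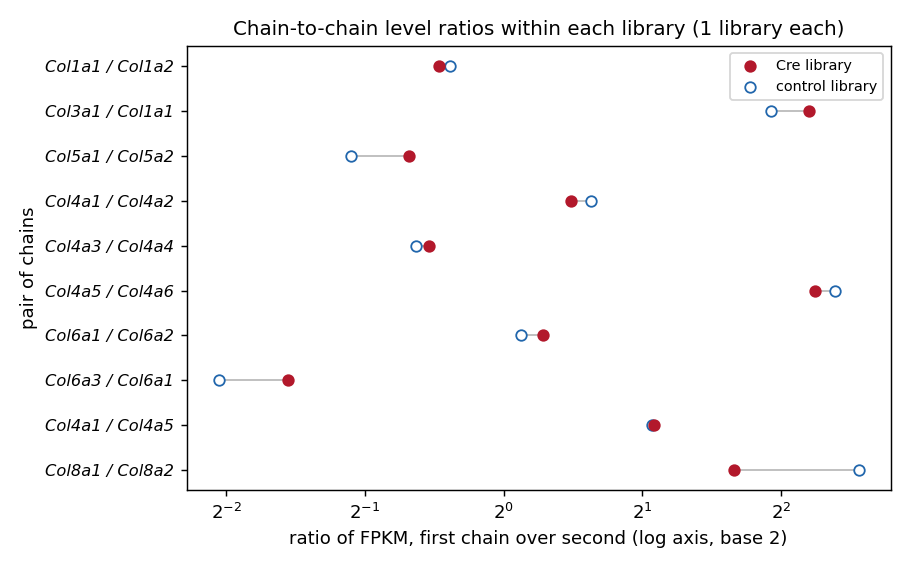
Ratio of FPKM between pairs of collagen chains (log axis, base 2) within the Cre library (filled) and within the control library (open). Col4a1 over Col4a5 is nearly the same in both, at 2.12 and 2.10, while Col8a1 over Col8a2 is at 3.16 in the Cre library and 5.88 in the control library, where Col8a2 was at 0.631 FPKM, below the minimum.

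Transcript length differs widely between chains. Across the 14 members with a mean of at least 10 FPKM Spearman's rho between length and log2 ratio was 0.49. Across all 30 members, from 3162 bases for Col13a1 to 11511 bases for Col12a1, it was 0.14. The median was 0.64 among the 10 members with the longest transcripts and 0.49 among the 10 with the shortest. Both were below the 0.65 of all 30 members, so the ratios did not rise steadily with length. Across 13351 measured genes with a length rho was 0.026. These are correlations across genes of the same 2 libraries, given as a description. Col6a3, with the highest ratio, has a transcript of 10106 bases, and Col6a1 and Col6a2, its partners, have 4100 and 3949 bases.

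Genes whose products fold and modify collagen also mostly had the higher value in the Cre library. Of 21 measured genes for folding and modification 20 lay above equal expression, against 46.0% of all measured genes, with a median log2 ratio of 0.42. Only 1 was at least 2-fold higher and 0 lower, against 6.08% and 10.4% of all measured genes, so the count past 2-fold is near the background. Serpinh1, the chaperone that binds the collagen triple helix, was the one past 2-fold, at 198 FPKM in the Cre library and 94.7 FPKM in the control library. Creb3l1, a membrane-bound transcription factor of collagen-secreting cells, had 10.1 FPKM in the Cre library and 4.92 FPKM in the control library. The ion channel gene Tmem38b had 19.1 FPKM in the Cre library and 11.2 FPKM in the control library, and P4ha2, a prolyl hydroxylase subunit, had 12.2 and 7.11 FPKM in the same order. P4ha3, another prolyl hydroxylase subunit, named after its value was seen, was the member below equal expression, at 1.77 FPKM in the Cre library and 3.38 FPKM in the control library.

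Genes for propeptide cleavage and cross-linking were all above equal expression (12 of 12 measured, against 46.0% of all measured genes), with a median of 0.43. The number past 2-fold was 0, against 6.08% of all measured genes higher and 10.4% lower. The 0 higher is thus near the background. Adamts3 and Loxl4 reached the minimum only through the Cre library. Tgm2, a transglutaminase, had 108 FPKM in the Cre library and 59.1 FPKM in the control library. Adamts3, which trims the end of procollagen, had 2.0 FPKM in the Cre library and 0.893 FPKM in the control library. Loxl2, a cross-linking oxidase, had 15.4 FPKM in the Cre library and 9.68 FPKM in the control library, and Bmp1, the procollagen C-proteinase, had 20.8 and 13.6 FPKM in the same order.

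Matrix proteins that lie on collagen fibrils had the lowest median of the matrix lists, 0.32, with 19 of 19 measured genes above equal expression, against 46.0% of all measured genes. The number past 2-fold was 0, against 6.08% of all measured genes higher and 10.4% lower. The 0 higher is thus near the background. Fn1, fibronectin, had 116 FPKM in the Cre library and 58.3 FPKM in the control library, with a log2 ratio of 0.98. Thbs2 and Fbn1 had 15.0 and 36.1 FPKM in the Cre library and 7.56 and 20.8 FPKM in the control library. Tnxb, a tenascin, had 21.5 FPKM in the Cre library and 12.4 FPKM in the control library.

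The partners of collagen IV in basement membranes had the highest median of the matrix lists, 0.88, with 15 of 15 above equal expression, 7 at least 2-fold higher and 0 lower. Of all measured genes 46.0% were above equal expression, 6.08% at least 2-fold higher and 10.4% lower. The laminin chains Lama5 and Lama2 had 15.2 and 28.6 FPKM in the Cre library and 5.25 and 11.5 FPKM in the control library. Lamc1 and Lamb1, the laminin chains shared by many trimers, had 67.0 and 45.2 FPKM in the Cre library and 29.9 and 20.5 FPKM in the control library. Pxdn, the peroxidase that cross-links collagen IV, had 20.6 FPKM in the Cre library and 8.45 FPKM in the control library. Nid1, nidogen, which links laminin to collagen IV, had 67.9 FPKM in the Cre library and 31.3 FPKM in the control library. The ranges of these lists overlap, since Smoc1 and Tinagl1 among the partners, at log2 ratios of 0.20 and 0.39 and named after their values were seen, lay below all 7 fibrillar members. Differences between the lists were not tested.

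Collagen-degrading enzymes and their inhibitors had a median of 0.48, with 14 of 16 measured genes above equal expression, 4 at least 2-fold higher and 0 lower, against 46.0%, 6.08% and 10.4% of all measured genes. Mmp13, 1 of the 4, and Mmp16 reached the minimum only through the Cre library, and Mmp9 only through the control library. The genes past 2-fold were on both sides of the process. Mmp2, a gelatinase, had 79.1 FPKM in the Cre library and 37.4 FPKM in the control library, and Mmp15 had 11.9 and 4.78 FPKM in the same order. Mmp13, a collagenase, had 1.79 FPKM in the Cre library and 0.365 FPKM in the control library. Timp4, an inhibitor of these enzymes in the heart, had 54.1 FPKM in the Cre library and 25.3 FPKM in the control library. Below equal expression were Mmp9, a gelatinase of white blood cells, at 0.632 FPKM in the Cre library and 1.84 FPKM in the control library, and Timp1 at 10.03 and 12.5 FPKM in the same order, both named after their values were seen.

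Collagen receptors had a median of 0.52 over 6 measured genes, with 4 above equal expression, 2 below and 0 past 2-fold. Of all measured genes 46.0% were above equal expression, 6.08% at least 2-fold higher and 10.4% lower. Lair1, 1 of the 2 below, reached the minimum only through the control library. Itga1, an integrin that binds collagen, had 8.31 FPKM in the Cre library and 3.77 FPKM in the control library. The collagen-binding kinases Ddr2 and Ddr1 had 13.0 and 20.7 FPKM in the Cre library and 6.59 and 12.5 FPKM in the control library, and Itgb1, the partner of all collagen-binding integrins, had 235 and 182 FPKM in the same order. Below equal expression were Adgrg1, an adhesion receptor that binds collagen III, at 12.9 FPKM in the Cre library and 15.5 FPKM in the control library, and Lair1, an inhibitory receptor of immune cells, at 0.868 and 1.13 FPKM in the same order, both named after their values were seen. Among the TGF-beta and fibrosis regulators 9 of 16 lay above equal expression, 1 was at least 2-fold higher and 1 lower, with a median of 0.31. These counts are near the 46.0%, 6.08% and 10.4% of all measured genes and show nothing about the list. Tgfb1, the ligand best known for inducing collagen, had 6.21 FPKM in the Cre library and 16.1 FPKM in the control library, with a log2 ratio of -1.25. Its receptor Tgfbr1 had 13.5 FPKM in the Cre library and 26.5 FPKM in the control library, with a log2 ratio of -0.92. Tgfbr3, betaglycan, had 31.5 FPKM in the Cre library and 15.1 FPKM in the control library, with a log2 ratio of 1.02, and Ltbp1, which holds latent TGF-beta in the matrix, had 22.6 and 11.5 FPKM in the same order. Tgfb1 and Tgfbr1 differed in the direction of the T cell markers given above, and which cells their transcripts came from was not tested.

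**Figure D5:**
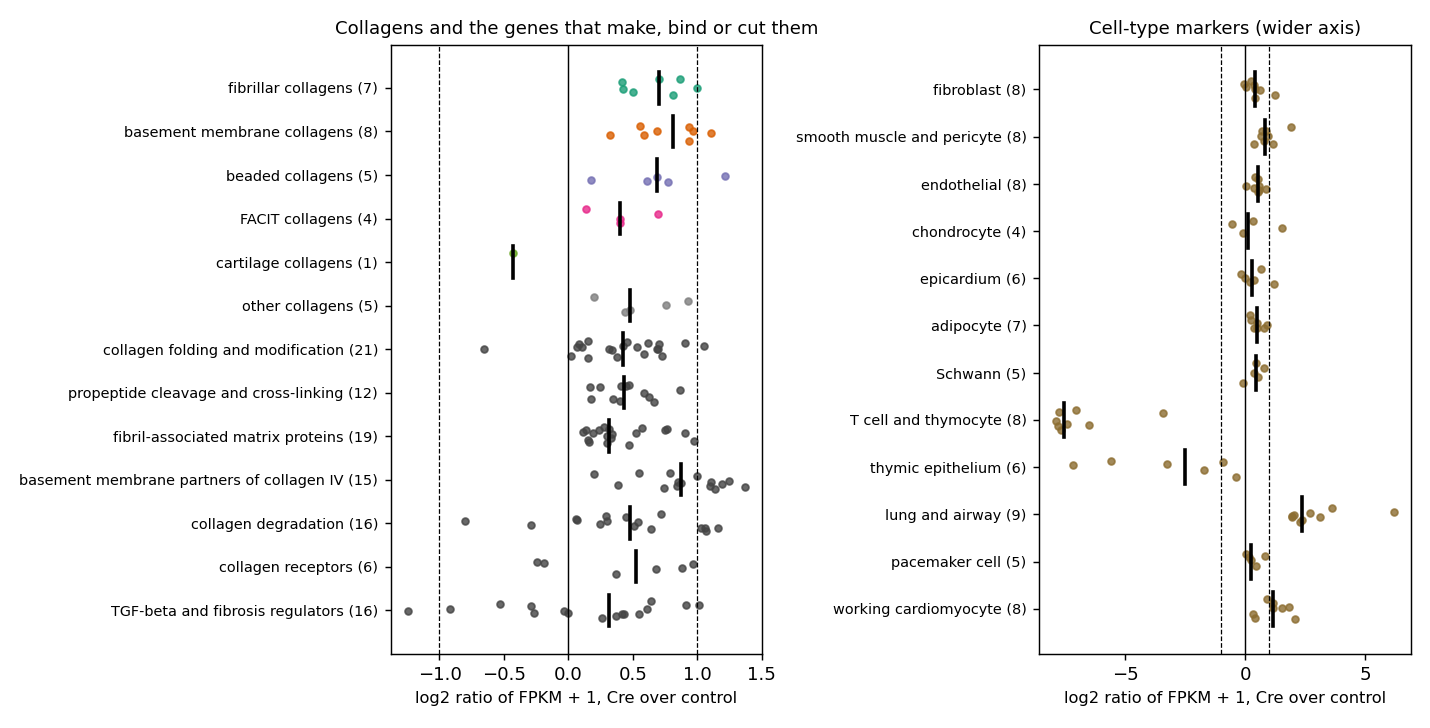
Log2 ratio of FPKM + 1 (Cre over control) of each measured gene (points) and the list median (bars) for collagen classes and collagen-related lists (left) and for cell-type markers on a wider axis (right), with the number measured in brackets and dashed lines at 2-fold. Basement membrane collagens (0.81) and their partners (0.88) have the highest medians on the left, and smooth muscle and pericyte markers (0.82) lie higher than fibroblast markers (0.39) on the right.

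Most markers of cells that make collagen also had the higher value in the Cre library. Fibroblast markers, which mark the main source of fibrillar collagen, summed to 1937 FPKM in the Cre library and 1367 FPKM in the control library, with a median log2 ratio of 0.39 over 8 genes, of which 7 lay above equal expression. The exception, Tcf21, had 28.5 FPKM in the Cre library and 29.6 FPKM in the control library. Pdgfra, the only fibroblast marker at least 2-fold higher, had 34.7 and 14.1 FPKM in the same order. Gsn had 1317 FPKM in the Cre library and 865 FPKM in the control library, Dpt had 263 and 224 FPKM, and Mfap5 had 150 and 113 FPKM in the same order. Smooth muscle and pericyte markers summed to 1130 FPKM in the Cre library and 689.7 FPKM in the control library, with a median of 0.82. Acta2 had 528 FPKM in the Cre library and 320 FPKM in the control library, and Tagln had 336 and 259 FPKM in the same order. All 8 lay above equal expression, and 2 were at least 2-fold higher. These were Rgs5, at 99.3 and 25.4 FPKM, and Myh11, at 61.8 and 27.4 FPKM in the same order. Of all measured genes 46.0% lay above equal expression and 6.08% were at least 2-fold higher. Endothelial markers summed to 430.2 FPKM in the Cre library and 325 FPKM in the control library, with a median of 0.55. With all ratios centred on the fibroblast list 25 of the 30 members lay above equal expression, with Col11a2, Col12a1, Col13a1, Col18a1 and Col6a5 below it. At that centre 0 were at least 2-fold higher, against 2.55% of all measured genes. With the endothelial list as centre 18 lay above equal expression, and with the smooth muscle and pericyte list 8 did. Centring also lowers all other genes, so the 46.0% does not apply to these counts. The median over all measured genes was -0.46, -0.62 and -0.89 at the fibroblast, endothelial, and smooth muscle and pericyte centres. Epicardium, adipocyte and Schwann markers had medians of 0.28, 0.51 and 0.43. The part of any of these cells in the collagen values was not tested.

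Heart muscle and pacemaker markers were set beside these values. Markers of working heart muscle had a median log2 ratio of 1.17 over 8 measured genes, above that of every collagen class. Pacemaker-cell markers had a median of 0.25 over 5 measured genes at low levels. All 7 listed markers, with those under the minimum, summed to 17.0 FPKM in the Cre library and 12.0 FPKM in the control library. Hcn4, which drives the Cre, had 0.719 FPKM in the Cre library and 0.605 FPKM in the control library. The defining marker of pacemaker cells was thus listed below 1 FPKM in both libraries.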

How the data were processed

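Poly-A RNA of sinoatrial node was sequenced, and 1 library per genotype was compared. Reads were processed with TopHat, Bowtie and Cufflinks on mm9, per the submitters' processing notes, and the sources used here do not give versions, annotation or scaling. The values that the authors deposited were taken as FPKM, from column names of the Cuffdiff kind. The same rows hold a log2 fold change, a p-value and a q-value, all computed by the authors before they were deposited. That fold change equals the log2 of the Cre value over the control value within 1.38e-05. Of 15967 rows, 2 whose status was not OK were left out. FPKM summed to 485189 in the Cre library and 497407 in the control library, and the depth is unknown.

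Log2 ratios used a pseudocount of 1, and genes needed a mean of at least 1 FPKM. From the measured genes 11 small-RNA genes were left out. Older symbols were matched through RefSeq names. Transcript lengths came from GENCODE M21, by accession or else the longest transcript. The members and all lists were chosen with earlier results of these data known. The genes named were every collagen chain, up to 4 members per collagen-related list with the largest absolute ratio plus those past 2-fold (at most 6), and up to 3 abundant members per marker list. Xist, Eif2s3y, Emid2, Hcn4, Tcf21, Pdgfra, Myh11, Loxl4 and Mmp16 were named beside this rule, with their values known. So were the chondrocyte markers Chad, Comp, Acan, Sox9, Cnmd, Ucma, Hapln1 and Snorc. The computation was tested on simulated data. Alternatives were pseudocounts of 0.1 and 5, no minimum or one of 5, a common upper quartile, TPM, centring on marker lists, and all rows. Python 3.11.15, pandas 2.3.3 and numpy 2.4.6 were used.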

Additional observations from a re-analysis of the deposited data

How the results depend on the processing

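The direction of the members held under the other pseudocounts, the other minimums, the common upper quartile and TPM, with Col11a2 the exception wherever it was kept. The number at least 2-fold higher was 2 of 30 as reported (6.08% of all genes), 2 of 40 with no minimum (5.23%) and 2 of 18 with a minimum of 5 (4.56%). It was 6 of 30 with a pseudocount of 0.1 (9.41%), 9 of 30 with a common upper quartile (9.71%) and 9 of 34 in TPM (8.37%). It was 0 of 30 with a pseudocount of 5 (1.78%) and with ratios centred on the fibroblast list (2.55%). The common upper quartile put the median over all genes at 0.13, against -0.07 as reported, so that 54.6% of all 2-fold differences were towards the Cre library, against 36.8% as reported, 42.7% with a pseudocount of 0.1, 22.8% with one of 5, and 10.9% with the fibroblast centring. It also took basement membrane collagens to a median of 1.01 and their partners to 1.09. With the fibroblast centring Col12a1, Col13a1, Col18a1 and Col6a5 turned to -0.25, -0.19, -0.068 and -0.21. Fibril-associated matrix proteins turned to a median of -0.072 and TGF-beta and fibrosis regulators to -0.078, beside -0.46 for all measured genes. Cartilage collagens rested on Col11a2 alone, and their median turned to 0.55 with no minimum and 0.73 in TPM, where more chains were kept. With a minimum of 5 FPKM no cartilage chain was left, and 18 of 18 members were above equal expression. Rows of any status changed no collagen value.

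Chosen after seeing the data, centring on the endothelial list left 0 chains past 2-fold (1.73% of all genes higher and 3753 of 13408 lower). Centring on the smooth muscle and pericyte list left 0 of 30 chains higher (0.835% of all genes) and 1 lower (5796 of 13408 genes). It turned the median of all chains to -0.17 and of basement membrane collagens to -0.010, beside -0.89 for all measured genes. No paired analysis was possible because there was 1 library per genotype. With no counts and unknown depth, no interval can be given, least of all for chains under 1 FPKM.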
